A study of Homo sapiens with 2 samples.

Results

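Cluster 3 was 1 of the 6 groups into which the study divided single MDA-MB-453 cells, a human breast cancer line in long use that the labels describe as triple-negative. Its members were the cells that carry cluster number 3 in the cell table, and they numbered 943 of 5985 cells. In the vehicle library, from 1 wild-type culture given water, 355 of 2822 cells belonged to it (12.6%, exact 95% interval 11.4 to 13.9). In the cytokine-treated library, from 1 wild-type culture exposed for 24 hours to 10 ng/ml of IL1β and TNFα, it held 588 of 3163 cells (18.6%, 17.2 to 19.99). Levels are counts of unique molecular identifiers (UMIs, each marking a captured transcript molecule) summed over a cluster's cells and scaled to 1000000 UMIs of that cluster (CPM). Each condition had a single library and cells of a culture are not replicates, so no test was made. All intervals cover counting error only, and cluster numbers derive from the same cells, so every comparison between clusters is a description.

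Keratins KRT8, KRT18, KRT19 and KRT7 build the intermediate filaments of simple and luminal epithelium and are standard markers of luminal breast cells. The proteasome is the protease complex that degrades ubiquitin-tagged proteins, and its fragments feed the MHC class I molecules that display peptides at the cell surface. IL1β and TNFα act through receptors that activate NF-κB, a transcription factor that turns on its own inhibitor NFKBIA together with many chemokine and acute phase genes. TDO2, KMO and KYNU encode enzymes of the route by which tryptophan is broken down through kynurenine.

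The luminal identity of the line was present in cluster 3. In the vehicle library its cells held 119.6 CPM of FOXA1, 570.0 of GATA3, 219 of SPDEF and 128 of ERBB2, and none of these transcription factors and receptors differed 1.5-fold from the other clusters in either library. EPCAM, an epithelial adhesion protein, stood at 331 CPM against 211 elsewhere in the vehicle library and at 367 against 209.9 in the cytokine-treated library. Markers of T, B and NK cells, of myeloid cells and of erythroid cells had no measured member (at least 5 CPM on either side), and their summed levels in cluster 3 lay between 0.130 and 4.45 CPM. Of the 10 basal markers in the matrix, 2 were measured in the vehicle and 3 in the cytokine-treated library, with 1 lower in each and none higher. Cluster 3 cells were deeper than the rest, with median UMI counts of 21574 against 19980 (vehicle) and 24130 against 20834 (cytokine). Their median mitochondrial share was 5.74% against 6.37% and 5.97% against 6.68%, and their median ribosomal share 27.3% against 29.7% and 24.2% against 27.7%. Of 8 barcodes found in both libraries, 3 cells of cluster 3 carried one.

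In the vehicle library 327 of 9069 measured genes were at least 1.5-fold higher in cluster 3 than in the other clusters pooled, which is 3.61% of the genes measured, and 482 were lower (5.31%). In the cytokine-treated library 325 of 8640 were higher (3.76%) and 343 lower (3.97%). Of these, 152 genes were higher in both libraries, 109 were lower in both and 1, S100A9, went opposite ways. Over the 8351 genes measured in both libraries the log2 ratios of the 2 libraries had a Pearson r of 0.689, across genes, which are not independent replicates. The balance of higher and lower genes moved with the scaling: it was 417 to 400 (vehicle) and 395 to 300 (cytokine) under TMM (trimmed mean of M values) scaling, 457 to 372 and 469 to 266 under median of ratios scaling, and 203 to 678 and 170 to 560 when ribosomal and mitochondrial genes were left out of the totals. The median of all measured genes stayed within 0.1 of its value under total scaling in each of these.

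Simple epithelial keratins were among the genes with the highest ratios in vehicle cluster 3. KRT7 stood at 539 CPM in cluster 3 and at 146 to 309 in the 5 other clusters, a log2 ratio of 1.46 over the others together (interval 1.41 to 1.52). KRT8 was at 683 CPM against 196 to 407 (log2 ratio 1.31). KRT18 and KRT19 reached 1378 and 1444 CPM, where cluster 0, the next highest, had 882 and 1130.5. All 4 keratins were thus highest in cluster 3. With cytokine they were highest there again and at greater levels in every cluster: KRT7 was at 2352 CPM against 1619.9 in cluster 0, the next highest, and KRT8 at 1629 CPM against 1191 in cluster 0. The log2 ratio to the other clusters was smaller than in vehicle, at 0.85 for KRT7, 0.82 for KRT8, 0.81 for KRT18 and 0.68 for KRT19. Of the luminal and apocrine genes, the list that holds these keratins, 10 of 33 measured were higher and 1 lower in vehicle and 10 of 35 higher and 1 lower with cytokine, with medians near 0 (0.06 and 0.05) that became −0.02 and −0.05 when ribosomal and mitochondrial genes were left out of the totals. The keratin levels were spread over the members and did not rest on a few cells. The summed level of these 4 keratins had a median of 3791 CPM per cell in cluster 3 (quartiles 2957 and 4792) and 1484 in other vehicle cells, and 97.2% of cluster 3 cells lay above that second median. With cytokine the medians were 8494 and 4678 CPM, and 99.0% of cluster 3 cells lay above.

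**Figure D1:**
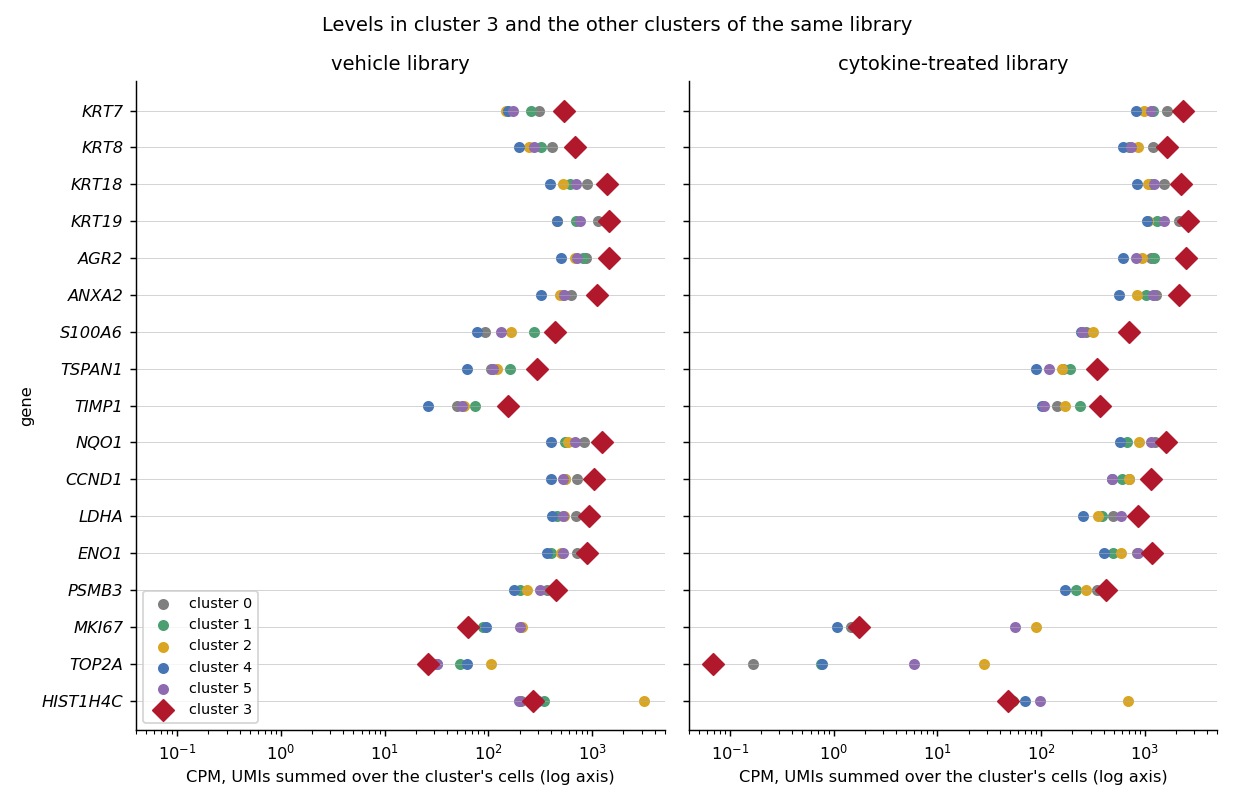
Levels of 17 genes in CPM (log axis) in each of the 6 clusters, with the vehicle library on the left and the cytokine-treated library on the right; each point is 1 cluster and the diamond is cluster 3. From KRT7 to PSMB3 the diamond is the rightmost point in vehicle, and with cytokine in all of them but S100A6 (cluster 1 is higher) and PSMB3 (cluster 5 is higher), while MKI67 and TOP2A are lowest in cluster 3 in vehicle.

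Other genes with high ratios in cluster 3 encoded secreted, membrane or calcium-binding proteins, which were picked by ratio and form no list of their own. AGR2, a disulfide isomerase of the secretory pathway, was at 1466 CPM against 500.2 to 866 in the other vehicle clusters and at 2471 against 615 to 1222 with cytokine. ANXA2, an annexin that binds membranes and actin, stood at 1107 and 2133 CPM, against 493 and 1071 in the other clusters of the same libraries. The tetraspanin TSPAN1 was at 293 CPM against 116 and at 346 against 158. TIMP1, a secreted inhibitor of metalloproteinases, was at 155 against 54.7 and at 372 against 166. These 4 genes were highest in cluster 3 in both libraries. S100A6, a calcium-binding protein, was at 437 CPM against 161 in vehicle and 708 against 409.6 with cytokine. Its level was uneven among members, with a median of 484 CPM per cytokine-treated cell and quartiles of 165 and 1004. S100A10, the partner of ANXA2, differed between libraries: 466 CPM against 206 in vehicle, and 109 against 82.1 with cytokine, where the ratio was under 1.5-fold. S100P, of the same family, was lower in vehicle than in the other clusters pooled (4.66 against 13.9 CPM), and cluster 1 had 53.2 CPM. Without the 10 richest cells on each side S100P was at 0.669 against 2.88 CPM. In cluster 3 those were 10 of the 15 cells with a UMI, a trim not matched in the other clusters. Of the secreted and vesicle genes, 4 of 14 measured were higher in vehicle and 4 of 15 with cytokine, with none lower and medians of 0.36 and 0.39 beside −0.05 and −0.00 over all measured genes. Of the actin cytoskeleton and motility genes, 12 of 37 were higher and 2 lower in vehicle and 7 of 36 higher and 1 lower with cytokine. ACTB was higher in both libraries (1486 CPM against 949.8, and 1412 against 885), while RDX, which links actin to the membrane, was lower in both (8.68 against 20.3, and 4.93 against 11.2).

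Genes of protein degradation and antigen presentation were higher together in cluster 3. Of the proteasome subunits, a list drawn up after the values had been seen, 16 of 36 measured were higher in vehicle and 11 of 37 with cytokine, none was lower, and the medians were 0.56 and 0.48. PSMB3, a subunit of the catalytic ring, was at 453 CPM in vehicle against 178 to 366 in the other clusters. With cytokine it stood at 419.6 CPM, where cluster 5 had 447. PSMC2, an ATPase of the regulatory cap, was at 46.4 against 22.8 and at 66.9 against 35.0. The summed level of all subunits per cell had a median of 7556 CPM in vehicle cluster 3, 6904 in cluster 0, the next highest, and 4519 in cluster 4, the lowest. With cytokine the median was 8647 CPM in cluster 3, 7909 in cluster 5, the next highest, and 7143 in cluster 0, and 99.2% of cluster 3 cells lay above the median of the other clusters. Of the MHC class I and immunoproteasome genes, 5 of 13 measured were higher in vehicle and 9 of 18 with cytokine, again with none lower (medians 0.50 and 0.53). The heavy chain HLA-C was at 185 CPM against 114 in vehicle and at 510.0 against 325 with cytokine. The proteasome activators PSME1 and PSME2 were at 189 and 263 CPM against 109 and 156 in vehicle, and at 539 and 599 against 338 and 382 with cytokine. Cluster 0 had the next highest medians per cell in vehicle for HLA-C, PSME1 and PSME2. They were 143, 147 and 220 CPM, beside 167, 180 and 245 in cluster 3. When totals left out ribosomal and mitochondrial genes, HLA-C, PSME1 and PSME2 no longer reached 1.5-fold in the cytokine-treated library.

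Some metabolic enzymes were high in cluster 3, and others were not. LDHA, which turns pyruvate into lactate, was at 937 CPM against 513 (vehicle) and 852 against 423 (cytokine), and lay above the other clusters' median in 93.5% and 93.9% of cluster 3 cells. The glycolytic enzymes PGK1 (449.6 against 241, and 521 against 287) and ENO1 (881 against 479.6, and 1178 against 661) differed likewise. Cluster 0 had the next highest medians per cell in vehicle for LDHA, PGK1 and ENO1. They were 633, 307 and 653 CPM, beside 882, 406 and 829 in cluster 3. EGLN3, a prolyl hydroxylase that marks HIF for degradation, was at 220.3 against 134 and 279 against 160.4. Of the hypoxia and glycolysis genes as a list, 7 of 28 measured were higher and 1 lower in vehicle and 6 of 25 higher and none lower with cytokine, with medians of 0.12 and 0.39. Of the respiratory chain genes, 0 of 34 were higher in vehicle and 2 of 34 with cytokine (medians 0.08 and 0.11), and of the fatty acid and lipid storage genes 0 of 22 in vehicle and 1 of 22 with cytokine, where 1 was lower (medians −0.02 and 0.03). Of the cholesterol synthesis genes, 3 of 25 were higher in vehicle and 10 of 25 with cytokine, with none lower. ACAT2 was at 86.5 CPM and FDPS, which makes farnesyl pyrophosphate, at 359 CPM in cytokine-treated cluster 3 cells, against 44.7 and 209 in the other clusters. SQLE, of the same pathway, was at 96.2 against 119, below the others though under 1.5-fold. NQO1, a quinone reductase, was highest in cluster 3 in both libraries, at 1254 and 1595 CPM against 589 and 958. The redox, ferritin and metallothionein genes around it were mixed: 7 of 26 and 6 of 25 were higher and none lower, and the abundant ferritin gene FTH1 had log2 ratios of 0.04 and −0.31. CCND1, the G1 cyclin that pairs with CDK4 and CDK6, was at 1041 CPM against 535 and at 1144 against 639.

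**Figure D2:**
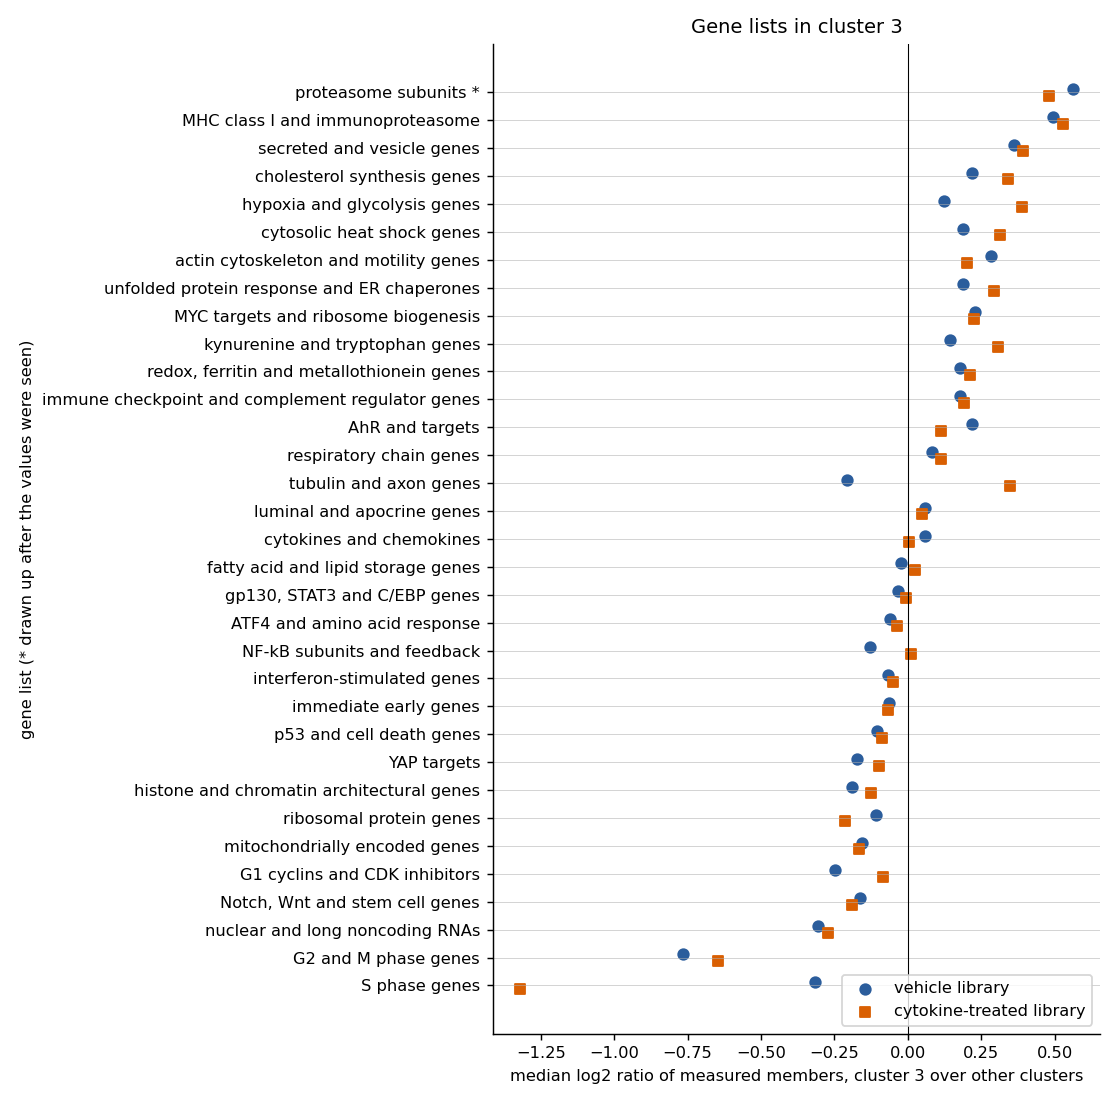
Median log2 ratio (x axis) of the measured members of gene lists with at least 5 measured in each library, cluster 3 over the other clusters, with circles for the vehicle and squares for the cytokine-treated library; lists are in rows, and the list with the asterisk was drawn up after the values were seen. Proteasome subunits (0.56 and 0.48) and MHC class I genes (0.50 and 0.53) lie furthest to the right and S phase genes with cytokine (−1.32) furthest to the left.

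Cell cycle genes were the largest group of low genes in cluster 3 against the other clusters pooled. Of the G2 and M phase genes, 40 of 64 measured were lower and none higher in vehicle (median −0.77). With cytokine 18 of 34 were lower and 1 higher (median −0.65). Of the S phase genes, 14 of 48 were lower in vehicle and 27 of 40 with cytokine, and none higher (medians −0.31 and −1.32). MKI67, a marker of cycling cells, stood at 62.8 CPM against 144 in vehicle and 1.74 against 14.3 with cytokine. TOP2A, the topoisomerase of dividing cells, was at 26.2 CPM against 66.6 in vehicle and had 1 UMI in cytokine-treated cluster 3 cells (0.0695 against 3.91 CPM). The replication-dependent histone HIST1H4C was at 269.8 CPM against 1243, a value to which cluster 2 contributed 3178 CPM. These ratios moved with the phases of the other clusters. The summed G2 and M phase level in vehicle was 5310 CPM in cluster 3. It was 5131, 4990 and 5067 in clusters 0, 1 and 4, and 7190 and 8927 in clusters 2 and 5. For the S phase genes it was 1844 in cluster 3, and 1655, 1560 and 1714 in clusters 0, 1 and 4. Clusters 2 and 5 had 3819 and 1177. These sums were thus not lower than in clusters 0, 1 and 4, though MKI67 and TOP2A were lowest in cluster 3. The study's phase calls put 168 vehicle cells of cluster 3 in G1 (47.3%), 162 in S (45.6%) and 25 in G2/M (7.04%), while cluster 2 had 0 of 740 cells in G1. With cytokine 581 of 588 cluster 3 cells were in G1 (98.8%), 7 in S (1.19%) and 0 in G2/M, which allows a share of up to 0.510%. Among G1 cells only, the cytokine medians of the G2 and M and the S phase lists were 0.01 and 0.13, the vehicle medians −0.23 and 0.09, and the number of genes lower in cytokine-treated cluster 3 went from 343 to 226. Phases called again on cells thinned to 15000 UMIs gave 35.1% G1 and 57.1% S for vehicle cluster 3, so its G1 and S shares depend on the calling, while its G2/M share was 7.74%. With cytokine the new calls gave 97.4% G1 and 2.61% S.

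**Figure D3:**
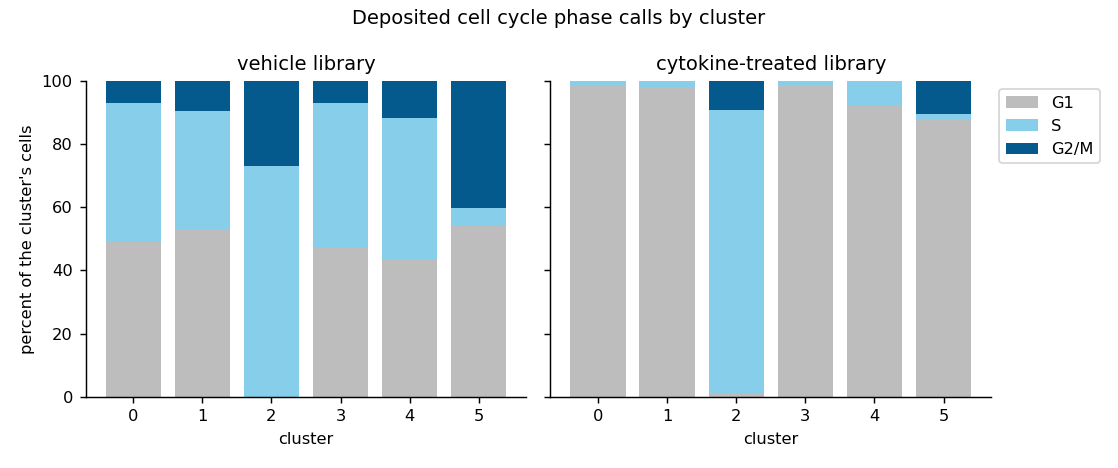
Percent of each cluster's cells (y axis) that the study called G1, S or G2/M, with the vehicle library on the left and the cytokine-treated library on the right. In cluster 3 the G1 share was 47.3% in vehicle and 98.8% with cytokine, and cluster 2 had 0 and 3 G1 cells.

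Some low genes in cluster 3 did not belong to the cell cycle. NR3C1, the glucocorticoid receptor, was at 14.0 CPM against 32.0 in vehicle and at 11.5 against 29.1 with cytokine. Cluster 1 had a like level (14.2 and 13.4), and the 4 remaining clusters lay above. The ephrin receptor EPHA4 was lowest in cluster 3 in both libraries (11.8 against 18.9 to 43.9 CPM, and 7.57 against 13.1 to 35.8). Nuclear and long noncoding RNAs had medians of −0.31 and −0.27, with 1 and 2 of 20 lower by 1.5-fold, where 5.31% and 3.97% of all measured genes were, while the abundant MALAT1 had log2 ratios of −0.01 and 0.06 and NEAT1 of 0.12 and 0.07. The 82 ribosomal protein genes had medians of −0.11 and −0.21, and none differed 1.5-fold.

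Genes on chromosome 8 beyond 40 Mb were lower in cluster 3 as a block. The 40 Mb boundary was not among the limits set at the start, so the contrast across it is a description. In vehicle 211 genes there had a median log2 ratio of −0.33 over the other clusters, 179 lay below 0, 48 were 1.5-fold lower (22.7%, where 4.78% of genes on other chromosomes were lower) and 2 higher. With cytokine the median of 206 genes was −0.29, 172 lay below 0, 37 were lower (18.0%, against 3.68% elsewhere) and 1 higher. Genes of the same chromosome up to 40 Mb had medians of −0.06 and −0.04, and genes of the other chromosomes −0.04 and 0.01. Cluster 1 was like cluster 3 in this respect, with medians of −0.07 and −0.02 for cluster 3 over cluster 1, while clusters 0 and 4 were not: cluster 3 over cluster 0 gave −0.53 and −0.39, and over cluster 4 −0.53 and −0.46. In windows of 20 Mb against cluster 0, all 6 windows beyond 40 Mb lay between −0.38 and −0.59 in vehicle and between −0.24 and −0.44 with cytokine, whereas the windows elsewhere in the genome ranged from −0.18 to 0.16 and from −0.11 to 0.22. Positions are those of a GRCh38 annotation, the build the study used.

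The block had members of unrelated function. The vesicle protein MAL2 was at 202 CPM in cluster 3, 235 in cluster 1, 397 in cluster 0 and 424 in cluster 4 in the vehicle library. PABPC1, which binds poly(A) tails, was at 351 CPM in cluster 3, 422 in cluster 1, 581 in cluster 0 and 690.3 in cluster 4. The zinc transporter SLC39A4 was at 66.7 CPM in cluster 3, 62.2 in cluster 1, 147 in cluster 0 and 133 in cluster 4. The host RNA SNHG6 was at 349.7 CPM in cluster 3, 445 in cluster 1, 611 in cluster 0 and 765 in cluster 4. RAD21, a cohesin subunit also used in mitosis, was at 57.4 CPM against 119.6 in the other clusters. MYC, which lies in the same stretch, was at 70.1 CPM against 63.1 in vehicle and at 34.4 against 52.0 with cytokine, so that it departed from the block in vehicle. Per cell, genes beyond 40 Mb took a median of 2.21% of the UMIs in vehicle cluster 3 and 2.01% with cytokine. Cluster 1 had 2.23% and 2.10%, cluster 0 had 3.36% and 2.96%, and cluster 4 had 3.35% and 3.12%. A limit of 2.7%, set after the values were seen, had 341 of 355 vehicle and 551 of 588 cytokine-treated cluster 3 cells below it, against 13 of 283 and 215 of 1100 cells of cluster 0. In clusters 2 and 5 cells lay on both sides, with 395 of 740 and 172 of 407 vehicle cells below. Without ribosomal protein genes the medians were 1.63% in cluster 3 and 2.48% in cluster 0 in vehicle, and 1.49% and 2.16% with cytokine. What set this difference was not tested.

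**Figure D4:**
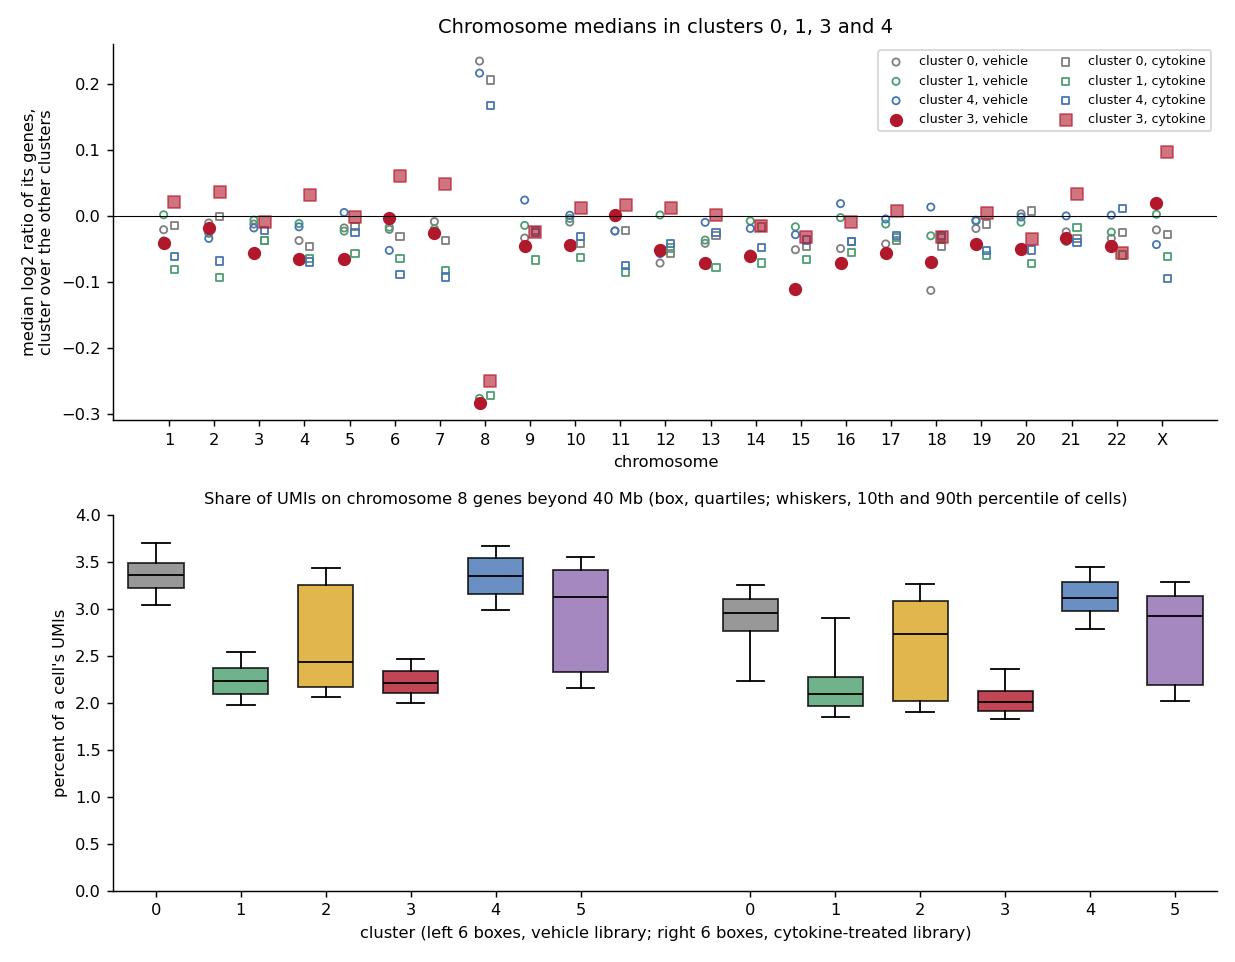
Top, median log2 ratio of each chromosome's genes in clusters 0, 1, 3 and 4 over the other clusters of the same library, circles for vehicle and squares for cytokine-treated cells. Bottom, percent of a cell's UMIs on chromosome 8 genes beyond 40 Mb by cluster; clusters 1 and 3 have medians of 2.01% to 2.23% and clusters 0 and 4 of 2.96% to 3.36%.

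Cluster 0 was the cluster most like cluster 3 by the number of differing genes. Against it, 244 of 9053 measured genes were higher in vehicle cluster 3 and 323 lower, and 93 of those 323 lay on chromosome 8 beyond 40 Mb, where 217 genes were measured. With cytokine 236 of 8519 were higher and 257 lower, 48 of them in that stretch. C1orf21 was at 73.1 CPM against 6.90 in cluster 0 in vehicle and 38.5 against 7.25 with cytokine, and clusters 1 and 2 resembled cluster 3 (88.6 and 53.7 CPM in vehicle). The LIM protein LMO4 was at 93.9 against 32.8 and at 63.7 against 23.4. With cytokine the neutral endopeptidase MME stood at 24.9 CPM against 4.86, the protease PRSS23 at 61.5 against 13.3, and the hair keratin KRT81 at 30.8 against 7.97. NR3C1 (14.0 against 38.0 in vehicle) and EPHA4 (11.8 against 34.5) led the genes lower than in cluster 0, and with cytokine the S100 genes did, as described further on. TDO2 in vehicle was at 9.07 CPM against 21.7.

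With cytokine, cluster 3 cells changed broadly. Of 9001 measured genes, 390 were at least 2-fold higher than in vehicle cluster 3 cells (4.33%) and 678 lower (7.53%). The other clusters gave between 354 and 432 higher and between 230 and 776 lower genes. The median of all measured genes was −0.14 on the log2 scale and moved to 0.03 under TMM or median of ratios scaling, with 547 higher and 502 lower under TMM, 541 and 503 under median of ratios, and 352 and 791 with totals that left out ribosomal and mitochondrial genes. Each value here compares 1 library with 1 library. Culture, library and treatment cannot be told apart.

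NF-κB feedback genes, chemokines and acute phase genes led the genes higher with cytokine in cluster 3. NFKBIA, the inhibitor that NF-κB induces, went from 101 CPM (94.1 to 108) to 1289 (1270.2 to 1307), a log2 ratio of 3.67 (3.57 to 3.78), within the 3.53 to 4.06 of the other clusters. LTB, a membrane cytokine of the TNF family, had no UMI in vehicle cluster 3 cells and 288 CPM with cytokine, at least 741-fold higher against a floor of 3 UMIs. The acute phase gene SAA1 went from no UMI to 132 CPM (at least 339-fold higher). CXCL8, a neutrophil chemokine, had 1 UMI in vehicle and 122 CPM with cytokine (log2 ratio 9.87, 7.39 to 15.18). LTB had a UMI in 49.9% of thinned cytokine-treated cells (45.7 to 54.1), SAA1 in 44.7% and CXCL8 in 46.8%, so a large share of members had none detected at this depth; without thinning the shares were 58.0%, 52.7% and 55.1%. The part of free RNA in shares of cells with a UMI was not tested. Of the NF-κB subunits and feedback genes 12 of 20 measured were higher, of the cytokines and chemokines 10 of 12, and of the acute phase and antimicrobial genes 11 of 11, with none lower in these lists. Of the MHC class I and immunoproteasome genes 12 of 18 were higher and of the interferon-stimulated genes 11 of 22. B2M, the light chain of MHC class I, went from 765 to 1979.6 CPM.

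Sequences before the gene starts are shown for NFKBIA and LTB, a pair of genes that NF-κB is known to control, and for TDO2, which had the largest ratio in cluster 3 among the tryptophan genes. They are the 250 bases before the gene start in RefSeq on GRCh38.p14, written 5′ to 3′ on the gene's strand, and capitals mark a match to GGG, any 2 bases and TTTCC, a form of the NF-κB site, read on either strand. The positions are chr14:35404750-35404999, minus strand, for NFKBIA, chr6:31582426-31582675, minus strand, for LTB, and chr4:155903446-155903695, plus strand, for TDO2.
NFKBIA: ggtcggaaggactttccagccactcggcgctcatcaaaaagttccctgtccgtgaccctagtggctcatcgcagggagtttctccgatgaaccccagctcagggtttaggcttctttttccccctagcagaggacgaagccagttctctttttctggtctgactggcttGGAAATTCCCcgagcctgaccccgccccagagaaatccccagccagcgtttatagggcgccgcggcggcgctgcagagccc
LTB: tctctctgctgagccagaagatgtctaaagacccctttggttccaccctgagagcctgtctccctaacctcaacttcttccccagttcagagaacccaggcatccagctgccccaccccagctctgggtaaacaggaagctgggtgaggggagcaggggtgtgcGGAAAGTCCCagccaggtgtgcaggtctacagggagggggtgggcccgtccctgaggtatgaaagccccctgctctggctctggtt
TDO2: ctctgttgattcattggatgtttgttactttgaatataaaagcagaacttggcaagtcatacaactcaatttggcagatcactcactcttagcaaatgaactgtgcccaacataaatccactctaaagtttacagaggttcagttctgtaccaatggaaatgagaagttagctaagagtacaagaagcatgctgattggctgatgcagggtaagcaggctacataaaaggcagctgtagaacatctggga
Both capital runs carry the site on the opposite strand. The match begins 81 bases before the gene start in NFKBIA and 86 in LTB, and TDO2 has none in this window. In windows that also took in the 50 bases after the start, 21 of 287 genes higher with cytokine in cluster 3 held a match (7.32%), against 163 of 7211 measured genes (2.26%), 12 of 540 lower genes (2.22%) and 1.92% of all 27305 promoters. Genes higher with cytokine in the other clusters gave 20 of 288 (6.94%). Among the 21 were LTB, BIRC3, CXCL2, IL32, TNFAIP3, NFKBIA, NFKBIZ, TAP1 and B2M. A match is a description of letters, and its absence from a window of this length says nothing of the factor.

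TDO2, KMO and KYNU were higher with cytokine in cluster 3, and the other tryptophan genes were not. TDO2, which opens the tryptophan ring, went from 9.07 CPM (7.07 to 11.5) to 685 (672 to 699), a log2 ratio of 6.24 (5.90 to 6.60) against 5.18 to 6.17 in the other clusters. The 70 vehicle UMIs came from 12 of 355 cells, and 10 cells held 97.1% of them. Without the 10 richest cells of each cluster and library, 2 vehicle UMIs were left in cluster 3 and the log2 ratio was 11.08 (9.23 to 14.13), with 6.90 to 10.07 in the other clusters. The size of the ratio thus depended on those cells. The trim took 10 of 12 vehicle cluster 3 cells with a UMI and 10 of 414 cytokine-treated ones. It thus favoured a higher ratio and is no check of its direction. With a fixed depth of 15000 UMIs, 2.98% of vehicle (1.44 to 5.41) and 65.4% of cytokine-treated cluster 3 cells (61.3 to 69.3) had a TDO2 UMI, beside 4.22% and 68.9% of the other cells; without thinning the cluster 3 shares were 3.38% and 70.4%. The level with cytokine was second to cluster 0 (788 CPM) and above cluster 1 (260.2). Among members the quartiles were 0, 193 and 827 CPM per cell, a wide spread. KMO, which hydroxylates kynurenine, went from 11.5 to 286 CPM (log2 ratio 4.63, others 3.72 to 4.57), and its share of thinned cells from 14.9% to 91.7% (20.8% to 97.1% without thinning). KYNU, which cleaves kynurenines, went from 4.02 to 56.0 CPM (log2 ratio 3.80, others 3.33 to 4.93) and reached 43.7% of thinned cells (55.3% without thinning). IDO1, the interferon-induced enzyme of the first step, had 1 UMI in cluster 3 in each library. CYP1B1, a target of the aryl hydrocarbon receptor, which kynurenine can bind, was at 91.5 and 70.2 CPM, under 2-fold apart. SLC7A5, a carrier of tryptophan and other large amino acids, was at 9.33 and 3.13 CPM, 2-fold lower or more. Of the 12 measured kynurenine and tryptophan genes 3 were higher and 1 lower, with a median of 0.10.

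The trefoil factors TFF1 and TFF3 had larger cytokine ratios in cluster 3 than in any other cluster. TFF1, a secreted mucosal peptide, went from 86.3 to 2058 CPM, a log2 ratio of 4.58 (4.47 to 4.69), where the other clusters ranged from 2.87 to 3.76. With cytokine cluster 3 held the highest level, followed by cluster 1 with 1494 CPM and cluster 2 with 556. A TFF1 UMI was found in 37.8% of thinned vehicle and 90.1% of cytokine-treated cluster 3 cells, against 25.6% and 70.9% of other cells; without thinning the cluster 3 shares were 44.2% and 92.9%. Members differed widely, with quartiles of 172, 767 and 2784 CPM per cell. The vehicle excess over the other clusters (log2 ratio 0.60) became −0.47 among G1 cells. TFF3 went from 13.5 to 67.9 CPM (log2 ratio 2.33, others 0.35 to 1.80). Without the 10 richest cells of each cluster and library the ratios were 5.27 for TFF1 (others 2.52 to 4.60) and 2.37 for TFF3 (others −0.24 to 1.95). IL6ST, the gp130 receptor chain, went from 3 UMIs to 20.6 CPM (log2 ratio 5.73, 4.17 to 8.02, others 4.40 to 4.94), an interval that takes in the other clusters. The tocopherol-binding protein SEC14L2 had a log2 ratio of 2.54 (others −0.26 to 2.13) and AGR2 of 0.75 (others 0.21 to 0.58). In all, 1318 of the 9001 genes had a ratio above and 1146 below those of all 5 other clusters. Some cluster of the 6 is always the highest and some the lowest, so these counts alone do not mark cluster 3. A gap of at least 0.5 on the log2 scale remained in 23 genes above and 62 below. The like count was not made for the other clusters, so these counts do not mark cluster 3 either.

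S100A8 and S100A9 had lower levels in cytokine-treated cluster 3 than in the other clusters pooled. S100A9, a subunit of calprotectin, was at 2316 CPM in cytokine-treated cluster 3 cells and at 5339 in the other clusters, with 9061 in cluster 0. Its partner S100A8 was at 1007 against 4058 CPM, and S100A7 at 2.08 against 25.7. Much of the S100A7 level lay in few cells, and it was 0.637 against 5.66 CPM without the 10 richest cells on each side. In cluster 3 those were 10 of the 19 cells with a UMI. An S100A9 UMI was found in 97.6% of thinned cytokine-treated cluster 3 cells and 98.7% of other cells (98.8% and 99.4% without thinning), against 3.57% and 3.78% in vehicle. The median per cell was 1199 CPM in cluster 3 against 3161 in other cells, 7337 in cluster 0 and 1165 in cluster 1. S100A9 was higher with cytokine than with vehicle in cluster 3, by a log2 ratio of 6.85 (6.62 to 7.09) where the other clusters gave 8.76 to 10.89. S100A8 gave 8.40 (others 10.19 to 13.07) and the monocyte chemokine CCL2 3.66 (others 5.58 to 9.08). The smaller ratios of S100A9 and CCL2 rested on a few vehicle cells. Without the 10 richest cells of each cluster and library they were 11.88 (10.53 to 13.76, others 9.96 to 12.96) and 9.07 (6.59 to 14.38, from 1 vehicle UMI, others 3.35 to 9.12). Both lie within the range of the other clusters, and S100A8 had no vehicle UMI left in cluster 3. That trim took 10 of 14 vehicle cluster 3 cells with an S100A9 UMI and 10 of 11 with a CCL2 UMI. The part it took was not matched between clusters. Of the cytokines and chemokines as a list, the median within cluster 3 (4.12) lay inside the 3.86 to 5.84 of the other clusters. Of the acute phase and antimicrobial genes, 6 of 14 were lower in cytokine-treated cluster 3 than in the other clusters pooled and 1 higher. Their summed level with cytokine was 4084 CPM in cluster 3, and 4839, 3784 and 4890 in clusters 1, 2 and 4. Clusters 0 and 5 had 17304 and 8602 CPM. In vehicle all 3 measured, S100A9 among them, were higher. The same few cells bear on the vehicle comparison between clusters. In vehicle cluster 3, 155 S100A9 UMIs lay in 14 of 355 cells and 109 of them (70.3%) in 1 cell, and 64 CCL2 UMIs lay in 11 cells. Without the 10 richest cells on each side, S100A9 was at 0.535 CPM in cluster 3 and 2.84 in the other vehicle clusters, and CCL2 at 0.134 against 0.158. The vehicle excess of S100A9 (20.1 against 4.46 CPM) and of CCL2 (8.29 against 0.983) thus lay in those cells. They were most of the cluster 3 cells with a UMI of these genes, and a smaller part of the other cells. The trimmed levels therefore do not compare like shares of cells. A CCL2 UMI was found in 2.68% of thinned vehicle cluster 3 cells and in 0.578% of other vehicle cells. S100A9 with cytokine was lower in cluster 3 than in the other clusters pooled also without its richest cells (2024 against 5161 CPM). Without the 10 richest cells of each cluster, clusters 1, 2 and 4 had like levels of 2092, 1715 and 2361 CPM. Cluster 5 had 3613 and cluster 0 had 8690 CPM. The 5 vehicle cells with 3 or more S100A9 UMIs had no LTB or TDO2 UMI, and none shared a barcode with the cytokine-treated library.

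**Figure D5:**
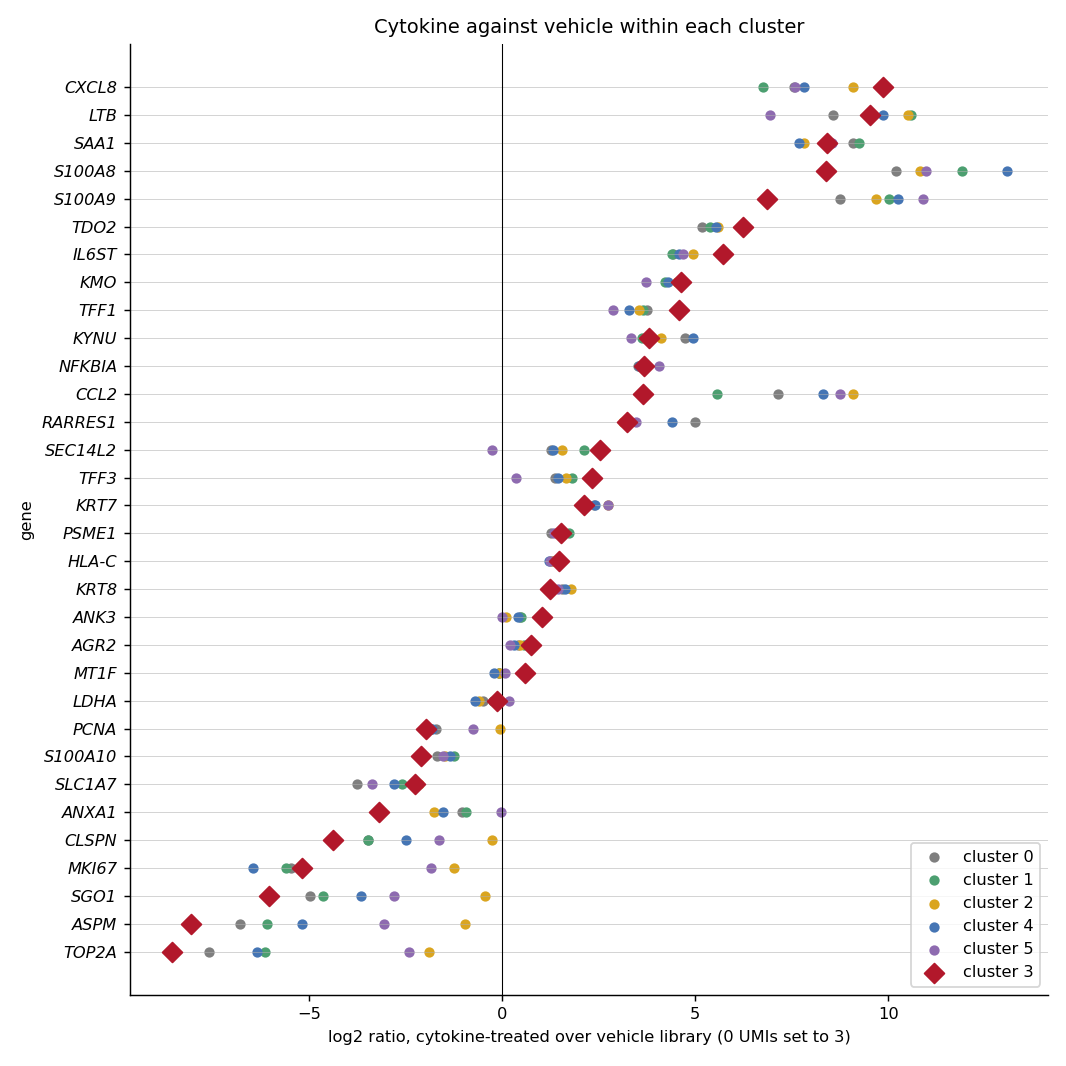
Log2 ratio of cytokine-treated over vehicle cells (x axis) for 32 genes in each cluster, with cluster 3 as a diamond and a count of 0 UMIs set to 3. In cluster 3 TFF1 (4.58) and TFF3 (2.33) lie to the right of the other clusters, while S100A9 (6.85) and CCL2 (3.66) lie to the left in all cells but not without the 10 richest cells (11.88 and 9.07).

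Cell cycle genes were lower with cytokine in cluster 3, though these lists held a minority of the 678 lower genes, and 463 genes were lower among G1 cells. Of the G2 and M phase genes 47 of 57 measured were lower and none higher (median −3.91), and of the S phase genes 43 of 44 (median −2.87). MKI67 went from 62.8 to 1.74 CPM (log2 ratio −5.18, −5.82 to −4.60, others −6.46 to −1.24) and PCNA, the replication clamp, from 127 to 32.5 (−1.97, −2.13 to −1.81). The mitotic genes ASPM (37.1 to 0.139 CPM) and SGO1 (22.9 to 0.347) had ratios of −8.06 (−11.11 to −6.19, with 2 UMIs left) and −6.05 (−7.69 to −4.80, with 5 left) in cluster 3, where the other clusters reached down to −6.79 and −4.97. Among G1 cells of both libraries the medians were −1.45 for the G2 and M and −1.42 for the S phase list, and PCNA fell short of 2-fold. Outside the cell cycle, the amino acid carrier SLC1A7 went from 240.3 to 50.4 CPM (−2.25, others −3.75 to −2.15), and S100A10 from 466 to 109 (−2.10, others −1.69 to −1.24). GATA3 went from 570.0 to 337 CPM, under 2-fold. Of the MYC targets and ribosome biogenesis genes 8 of 40 were lower and none higher (median −0.64), and MYC itself went from 70.1 to 34.4 CPM. Of the groups that were high in cluster 3, the luminal and apocrine genes had 6 of 35 higher and none lower. The hypoxia and glycolysis genes had 2 of 27 lower and none higher, and the proteasome subunits 2 of 37 higher and none lower. Over all measured genes 4.33% were higher and 7.53% lower, so the counts of the last 2 lists were not read as a change. LDHA was at 937 and 852 CPM.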

How the data were processed

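Single-cell RNA was counted from 2 libraries of MDA-MB-453 cells, 1 per condition. The authors aligned reads to GRCh38 and counted UMIs with Cell Ranger 3.1.0 and used Seurat 4.0.4; they kept cells below 50000 UMIs, between 3000 and 5000 genes and below 15% mitochondrial UMIs, and genes seen in at least 10 cells. The deposited matrix holds raw counts of 16251 genes, and the deposited cell table holds UMI counts, the percent of mitochondrial UMIs, the phase calls of the authors and the cluster numbers; UMI sums of the matrix equalled the table in 5985 cells. For visualization the authors integrated both libraries after sctransform normalization, with the difference of the S and G2/M scores removed by regression; the clustering step and its resolution are not given in the sources used here.

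Counts were summed per library and cluster and divided by total UMIs (CPM); library totals were 58587996 (vehicle) and 69592446 (cytokine). A gene was measured at 5 CPM or more on either side, and called higher or lower at 1.5-fold between clusters or 2-fold with cytokine, with the exact conditional binomial 95% interval of the ratio on the same side of 1. A count of 0 was set to 3 UMIs (0.389 CPM in vehicle and 0.208 in cytokine-treated cluster 3). Intervals of levels are exact Poisson and of shares Clopper-Pearson, and cover counting error only. Shares of cells with a UMI were taken after each cell was thinned to 15000 UMIs; of cluster 3, 336 vehicle and 575 cytokine-treated cells were deep enough. Scrublet in scanpy 1.11.5 called 0.106% and 0.0316% of cells doublets, none in cluster 3; it was judged not to have worked and no cell was removed. Positions were found for 13406 genes. Promoters are RefSeq windows, searched for a motif on both strands. Scripts ran in Python 3.11.15 with numpy 2.4.6 and scipy 1.17.1, with edgeR 4.0.16 in R 4.3.3 for TMM factors only, and were tested on simulated data.

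The cluster and the 40 gene lists were chosen with earlier results of these data known, and the proteasome list after its values were seen. Genes were named by a rule: a short list of tryptophan, inflammatory, luminal and cell cycle genes, the 12 highest and 12 lowest ratios at 20 CPM or more in each comparison, the 8 genes furthest above and below the other clusters in the cytokine response, and up to 4 members of lists whose median departed by 0.3 from all genes. The other genes named, among them those of chromosome 8 and of the comparisons with clusters 0 and 1, were chosen after their values were seen. Some items are not reported here. Alternatives covered scaling, thinning, filters on level and mitochondrial share, G1 cells only, and weights of the other clusters.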

Additional observations from a re-analysis of the deposited data

Results flagged for a closer look

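S100A9 was higher in cluster 3 than in the other clusters pooled in the vehicle library, with a log2 ratio of 2.17. It was lower in the cytokine-treated library, with a log2 ratio of −1.20. The 2 libraries thus gave opposite directions for the same contrast, and the difference between them was not tested, since each condition had 1 library. The vehicle value rested on few cells: 109 of 155 UMIs lay in 1 cell, and the ratio was −2.41 without the 10 richest cells on each side. Those were 10 of the 14 cluster 3 cells with a UMI, of 355 cells in all, beside 10 of 2467 other cells. The trim was thus uneven, and −2.41 does not show a lower level in cluster 3. Without thinning 3.94% of cluster 3 and 4.50% of other vehicle cells had a UMI.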

How the results depend on the processing

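Each condition had 1 library, so no library could be left out. No paired analysis was possible because each group held a single sample and no test was run. For cluster 3 over the other clusters in vehicle, 203 genes were higher with totals that left out ribosomal and mitochondrial genes, 216 were higher and 151 lower among genes at 20 CPM or more. In the cytokine-treated library 170 were higher and 560 lower without ribosomal and mitochondrial genes in the totals, and the number lower was 226 in G1 cells only, 227 with other cells weighted to the phases of cluster 3, 582 with the other clusters weighted equally, 783 from 1 CPM and 80 from 20 CPM. With cytokine within cluster 3, 628 were higher and 1133 lower from 1 CPM, and 224 and 273 from 20 CPM. Among G1 cells cluster 3 held 16.3% (vehicle) and 20.8% (cytokine) of the cells. Phases called again gave 35.1% G1 and 57.1% S in vehicle and 97.4% and 2.61% with cytokine. Directions turned in G1 cells for TFF1 in vehicle (−0.47), for TK1 (0.18) and for the medians of the G2 and M (0.0057) and S phase genes (0.13) with cytokine, and for the median of the S phase genes in vehicle (0.09). They turned with phase weights for PLK1 in vehicle (0.23) and TK1 with cytokine (0.0203). They also turned for S100A9 (−2.41) and CCL2 (−0.24) in vehicle without the 10 richest cells, an alternative chosen after seeing the data. That alternative took a larger share of the cells of cluster 3 than of the others. The cause of these shifts was not tested. Of the named genes past the fold limit, 40 of 66 in vehicle, 48 of 62 with cytokine and 74 of 76 within cluster 3 kept their call under every alternative set at the start, and the medians of chromosome 8 genes beyond 40 Mb kept their sign in all of them. Removal of doublets was not run.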

Other observations

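Cluster 1 shared the low chromosome 8 level with cluster 3 but differed in other gene groups. Against cluster 1, 559 genes were higher in vehicle cluster 3 and 375 lower, and with cytokine 900 were higher and 280 lower. With cytokine, the interferon-induced genes IFIT1 (3.06 against 30.3 CPM), IFI27 (6.39 against 35.4 CPM) and ISG15 (269.9 against 514 CPM), the chemokine CCL5 (4.51 against 23.0 CPM) and the collagenase MMP13 (19.9 against 61.1 CPM) were lower in cluster 3. These genes were picked by their ratio to cluster 1. The interferon-stimulated genes as a list summed to 1827 CPM in cytokine-treated cluster 3 and 2175 in cluster 1. Clusters 0, 2, 4 and 5 had 1771, 1703, 1601 and 1915 CPM. The proteasome ATPase PSMC4 (194 against 74.0 CPM), the adhesion protein EPCAM (367 against 139 CPM) and TDO2 (685 against 260.2 CPM) were higher in cluster 3.

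Lists of protein folding and growth had medians slightly above that of all genes in cluster 3. Over all measured genes 3.61% were higher and 5.31% lower in vehicle, and 3.76% and 3.97% with cytokine. The all-gene medians were −0.05 and −0.00, and 0.09 with cytokine among genes at 20 CPM or more. Of the unfolded protein response and ER chaperone genes, 2 of 28 were higher and 1 lower in vehicle and 4 of 28 higher with cytokine, with medians of 0.19 and 0.29. The cytosolic heat shock genes had medians of 0.19 and 0.31, with 1 of 20 lower in vehicle and 1 of 19 higher with cytokine. MYC targets and ribosome biogenesis genes had medians of 0.23 and 0.22, with 3 of 40 higher in vehicle and 2 of 38 higher and 1 lower with cytokine. A few genes high in cluster 3 were carried by part of its cells, as with MGP, a matrix protein, whose 293 vehicle UMIs lay in 71 of 355 cells.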
